A study of Mus musculus with 7 samples.

Results

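Chemokines are small secreted proteins that steer migrating leukocytes, and they act through receptors that span the cell membrane. The 9 genes of this system known from the osteoclast (OC) lineage and followed here comprise 4 receptors and 5 ligands. The binding of the transcription factors PU.1 and MITF around them was described in myeloid precursors (MPs), after 36 h of RANKL, and in OCs. The receptors were Ccr1, Ccr2, Cx3cr1 and Cxcr4, and the ligands were Ccl2, Ccl3, Ccl4, Ccl6 and Ccl9. A ChIP-Seq peak belonged to a gene when its centre lay in the gene or within 30 kb of either end on mm9. Of the 238652 peaks in the 6 PU.1 and MITF lists, 268 met this rule. Peaks of different lists that overlapped were joined, and this gave 98 sites.

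ChIP-Seq sequences the DNA fragments that an antibody against a protein brings down, and a place where fragments (tags) pile up is called a peak. All libraries came from bone marrow of C57BLACK6 mice aged 4 to 6 weeks, grown for 3 days with 50 ng/ml CSF1, the cytokine that sustains macrophages and their precursors. MPs received CSF1 alone, the 36 h cells also received 100 ng/ml RANKL, the cytokine that drives OC formation, and OCs received it for 72 h. PU.1 and MITF were each precipitated with 5 µg of antibody at the 3 times, and preimmune IgG served as a control in MPs only. Each of the 7 libraries stands alone, so no difference between times has a replicate check, and every interval below covers counting error only.

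As background, Ccr1 receives Ccl3, Ccl6 and Ccl9, Ccr2 receives Ccl2, Cx3cr1 receives fractalkine and Cxcr4 receives Cxcl12. Through these receptors, circulating monocytes and OC precursors reach or leave bone. PU.1 is an ETS family factor required for the myeloid lineage, and it binds purine-rich sequence with GGAA at its core. MITF, which belongs to the basic helix-loop-helix leucine zipper family, is required for OC maturation, and it binds E-boxes such as CACGTG and CATGTG. The lists hold binding and no expression, so nothing below tells how strongly a gene was transcribed.

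A site is named by the nearest of the 9 genes and by the distance in bp from the start of that gene to the centre of the site, with a minus sign for upstream. The sequences of 8 sites are shown because the results turn on them. Each is the 151 bases around the centre of the PU.1 OC peak, read 5′ to 3′ on the plus strand of mm9. The first 3 are the sites that held a MITF peak at all 3 times. The fourth is the strongest site of Cxcr4, the fifth lies at the start of Ccr1, the sixth and seventh bound MITF at some times only, and the last is the only PU.1 site whose score was called changed. Capitals mark the PU box GAGGAA, shown as TTCCTC where it is on the minus strand, the E-box CATGTG, shown as CACATG in that case, and the AP-1 motif TGANTCA.
Cx3cr1 +9356, chr9:119967946-119968096: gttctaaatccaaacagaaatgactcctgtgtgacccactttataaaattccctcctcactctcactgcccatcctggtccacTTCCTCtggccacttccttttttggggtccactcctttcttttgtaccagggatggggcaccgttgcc
Ccl2 -12681, chr11:81836304-81836454: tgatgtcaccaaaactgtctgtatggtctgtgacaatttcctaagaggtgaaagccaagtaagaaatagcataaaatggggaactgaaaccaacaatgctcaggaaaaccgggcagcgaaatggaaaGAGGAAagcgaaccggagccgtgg
Ccl6 -26149, chr11:83432658-83432808: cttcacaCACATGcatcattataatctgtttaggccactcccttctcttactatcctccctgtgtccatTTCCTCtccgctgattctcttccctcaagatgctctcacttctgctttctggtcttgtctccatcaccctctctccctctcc
Cxcr4 +1350, chr1:130487443-130487593: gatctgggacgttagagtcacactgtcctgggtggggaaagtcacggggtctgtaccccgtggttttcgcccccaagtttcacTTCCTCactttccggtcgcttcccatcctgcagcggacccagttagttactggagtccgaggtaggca
Ccr1 -113, chr9:123883563-123883713: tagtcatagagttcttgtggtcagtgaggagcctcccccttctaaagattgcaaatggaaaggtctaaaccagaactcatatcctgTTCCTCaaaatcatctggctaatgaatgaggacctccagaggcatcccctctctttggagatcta
Ccr1 -16026, chr9:123899476-123899626: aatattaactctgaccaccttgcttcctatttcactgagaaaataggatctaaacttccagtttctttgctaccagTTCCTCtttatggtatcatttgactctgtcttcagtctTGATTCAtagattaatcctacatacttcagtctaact
Ccl3 -6520, chr11:83469301-83469451: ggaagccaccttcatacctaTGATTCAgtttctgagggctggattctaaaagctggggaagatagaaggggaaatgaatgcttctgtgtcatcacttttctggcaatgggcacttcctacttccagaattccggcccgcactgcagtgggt
Ccr1 +22245, chr9:123861218-123861368: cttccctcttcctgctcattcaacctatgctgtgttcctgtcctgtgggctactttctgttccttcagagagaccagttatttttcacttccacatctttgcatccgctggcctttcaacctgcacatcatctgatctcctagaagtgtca

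The E-box CACGTG was in none of these 8 windows, and neither was the M-box TCATGTG, an extended E-box that contains CATGTG. The PU box was in 6 of the 8 windows, the CATGTG E-box in the Ccl6 -26149 window and the AP-1 motif in the windows of Ccr1 -16026 and Ccl3 -6520. Over windows of this length at all PU.1 OC peaks of the 9 genes, searched on both strands, the PU box was in 45 of 80 (56.2%), against 55.8% of PU.1 OC peaks in the genome. CATGTG was in 10.0% of the windows at the 9 genes and in 10.9% of all. CACGTG was in 2.5% and 2.51%, TCATGTG in 1.25% and 3.4%, and TGANTCA in 6.25% and 8.57%. The windows of the chemokine genes thus held these motifs about as often as the windows of PU.1 OC peaks at large, with 95% exact binomial intervals that cover the genome value for each motif. Of the 8 that also held MITF in OCs, 3 had CATGTG (37.5%, 95% CI 8.52 to 75.5), against 9.65% of all PU.1 OC peaks with MITF, a difference of few peaks that was not tested. The gap was smaller at the other times, with 2 of 13 in MPs (15.4%, against 11.2%) and 1 of 7 at 36 h (14.3%, against 9.19%).

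The lists held 76243 PU.1 peaks in MPs, 71941 at 36 h and 77072 in OCs, and 5413, 3540 and 4443 MITF peaks. The Peak Score is the number of tags in a peak scaled to a common library size. It was a whole multiple of 1 value per library, so tags could be recovered. The lowest peak of a list held between 6 and 10 tags, and no weaker signal can be seen. If HOMER scaled to 10000000 tags, its default, the scores imply libraries of 5860000 to 6810000 tags for PU.1 and 8760000 to 10270000 for MITF. Peaks were 150 bp wide at most in the PU.1 MP and OC lists, up to 190 bp in the PU.1 36 h list and 150 to 1387 bp in the MITF 36 h list, so counts of tags at 36 h cover wider intervals. As a check of the label, all 4 myeloid marker genes (Itgam, Emr1, Lyz2 and Cd68) had 11 to 16 PU.1 OC peaks by the same rule, and the 4 OC markers (Ctsk, Acp5, Calcr and Atp6v0d2) had 1 to 17. The 5 genes of other cells (Cd3e, Cd4, Alb, Krt14 and Col1a1) had 0 to 14, so peak numbers alone do not separate the lineages.

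PU.1 bound densely around all 9 chemokine genes at every time. Each gene had at least 5 PU.1 peaks in each library, as did 46.2%, 45.8% and 47.7% of 22367 protein-coding genes in MPs, at 36 h and in OCs. At least 1 peak was found at 80.5%, 80.0% and 80.5% of protein-coding genes. Counted once each, the peaks numbered 86 in MPs, 74 at 36 h and 80 in OCs. The median was 12, 11 and 12 peaks per gene for the 9 genes and 4 for protein-coding genes in each library. None of the 349 IgG peaks lay at the 9 genes. Over the whole PU.1 MP list, 4 of 76243 peaks overlapped an IgG peak (0.00525%), so this absence says little about these genes. A lower score can come from fewer cells that carry the factor or from less binding per cell, and these cannot be told apart in bulk chromatin.

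Among the receptors, Ccr1, which receives several OC chemokines, had the most PU.1 peaks in MPs with 13, then 11 at 36 h and 12 in OCs. Cx3cr1, a monocyte receptor, had 12, 11 and 11. Ccr2, which draws inflammatory monocytes out of the marrow, had 10, 8 and 9. Cxcr4, which holds cells in the marrow, had the fewest of all 9 genes with 6, 5 and 6. Its count in OCs was still above that of 60.4% of protein-coding genes, while that of Ccr1 was above 89.7%. Neighbours in this order differ by at most 4 peaks, and without replicates no spread is at hand to judge such gaps.

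Of the ligands, Ccl6, a macrophage chemokine, had 16 PU.1 peaks in MPs, 13 at 36 h and 15 in OCs, the most of the 9 genes at MP and OC. Ccl9, a chemokine that OCs are known to secrete, had 15, 13 and 14. Ccl2, the monocyte attractant, had 15, 13 and 11. Ccl3 had 12, 10 and 14 and Ccl4 had 10, 9 and 12, both inflammatory chemokines of macrophages. Ccl2 thus had fewer peaks at each later time, while Ccl3 and Ccl4 ended with 2 more than they began with. In OCs, Ccl6 exceeded 94.8% of protein-coding genes. Per 10 kb of window, Ccl3 and Ccl6 were each above 99.8% of them. Ccl9, Ccl6, Ccl3 and Ccl4 lie together in 91.8 kb on chromosome 11, their windows overlap, and 27 of the 98 sites were counted for more than 1 gene. The 4 genes had 30, 26 and 31 distinct PU.1 peaks between them.

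**Figure D1:**
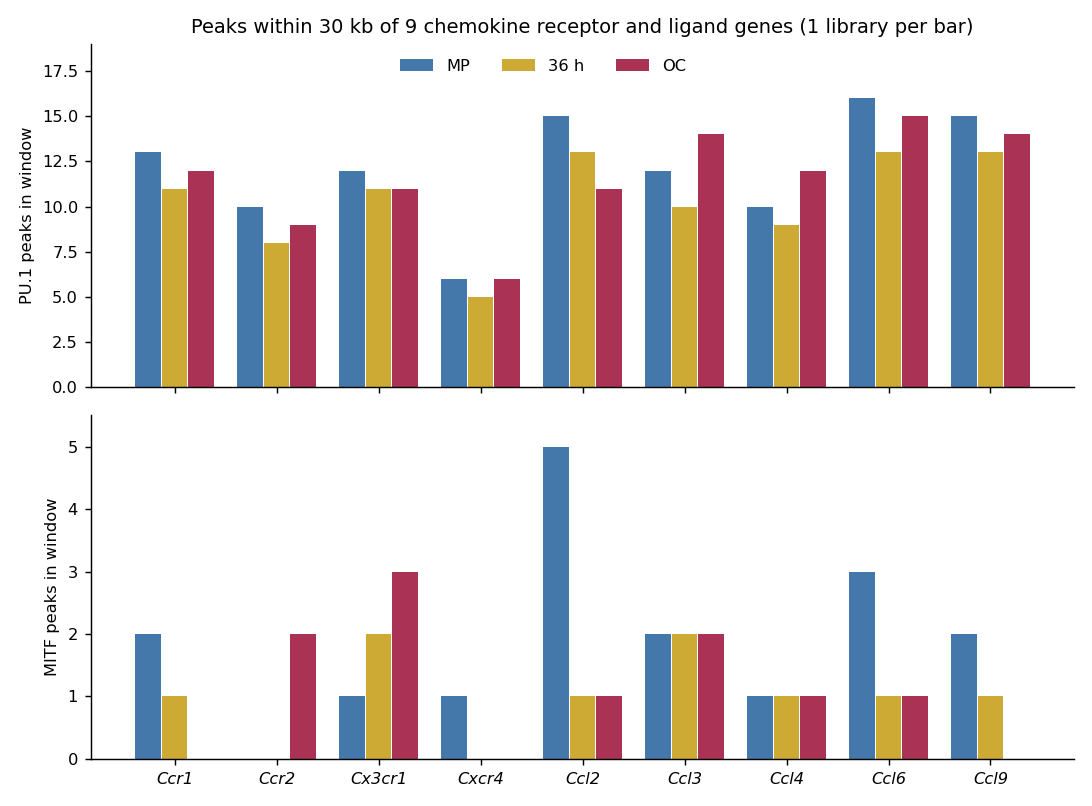
Bars give the number of PU.1 peaks (upper panel) and MITF peaks (lower panel) in each gene or within 30 kb of it, 1 bar per library (MP, 36 h, OC), with no error bars because there are no replicates. PU.1 peaks number 5 to 16 at every gene and time, while MITF peaks number 0 to 5 and shift between genes with time.

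In the distribution over protein-coding genes, the 9 genes lay at or to the right of the bulk. The members spread from Cxcr4 with 6 PU.1 OC peaks to Ccl6 with 15, and 4356 coding genes had none.

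**Figure D2:**
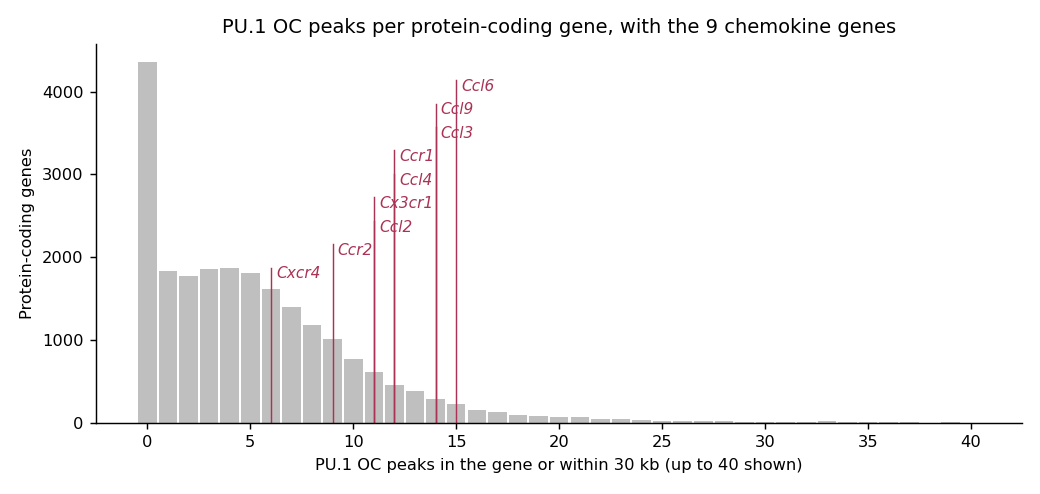
Grey bars count protein-coding genes by their number of PU.1 OC peaks in the gene or within 30 kb, and red lines mark the 9 chemokine genes. The line heights only separate the labels, and all 9 lines lie above the coding gene median of 4 peaks.

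The peaks at the 9 genes were also taller than the usual PU.1 peak. Their median score was 51.2 in MPs, 49.6 at 36 h and 52.9 in OCs, against 23.9, 23.7 and 23.5 in the whole lists. A score of at least 100 was reached by 22 of the 86 peaks in MPs (25.6%, against 9.91% of the list), 12 of 74 at 36 h (16.2% against 7.83%) and 14 of 80 in OCs (17.5% against 8.69%). Ligand peaks had median scores of 63.1, 59.1 and 66.0, and receptor peaks 34.1, 34.0 and 31.6. Ligand windows thus held the taller PU.1 peaks at each time, although peaks at one locus share chromatin and are not replicates, so this was not tested.

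Cx3cr1 (chr9:119957811-119977400, minus strand) held the tallest PU.1 site of the 98. This site, Cx3cr1 +9356 in an intron of the gene, scored 276.3 in MPs (162 tags), 306.0 at 36 h (207 tags) and 276.1 in OCs (188 tags). Its MP score exceeded that of 99.7% of the PU.1 MP list. The next sites of Cx3cr1 were +30644, beyond the end of the gene, with 119.4, 112.3 and 124.8, and -617, just upstream of it, with 117.7, 102.0 and 121.9. All 3 kept their height through the 3 times. At the start itself, site +39 in an exon was low, with 17.1, 29.6 and 32.3.

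Ccr1 (chr9:123876959-123883525, minus strand) spread its PU.1 signal over several sites, none near the height of that in Cx3cr1. Its tallest, +34563 beyond the end of the gene, scored 172.3 in MPs, 121.2 at 36 h and 136.6 in OCs. Upstream, -16026 scored 126.2, 73.9 and 92.5, and -17595 scored 121.1, 100.5 and 121.9. The peak at the start, -113, was of medium height, with 42.6, 48.8 and 36.7, which are 25, 33 and 25 tags. The segment of Ccr1 that the study amplified by ChIP-qPCR, chr9:123883433-123883507, has its centre 55 bp inside the gene and does not overlap this peak. The gap to the peak was 49 bp in MPs, 52 bp at 36 h and 56 bp in OCs. The primers are shown to place that segment.
Ccr1 forward primer: aggtagctctgccctacaagaa
Ccr1 reverse primer: tcattgtcacacacagagttcaa

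Ccr2 (chr9:124016689-124028296, plus strand) was the receptor with the lowest top score. Its tallest site, +1498, scored 58.0, 57.6 and 70.5, and +10838 scored 51.2, 51.7 and 55.8, both in exons of Ccr2. Site -11311 scored 58.0 in MPs and 30.8 in OCs and had no peak at 36 h. The site nearest to the start, -1373, stayed at 17.1, 10.3 and 10.3. Chemokine receptor genes resemble each other in their coding exons, and how the authors treated reads that match several places is not given in the sources used here. Whether the exonic sites of Ccr2 lie in coding sequence was not checked, so their scores remain uncertain.

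Cxcr4 (chr1:130484776-130488870, minus strand) was the opposite case, with few sites and 1 of them tall. Site +1350, in its intron, scored 216.6, 172.9 and 192.4, which are 127, 117 and 131 tags. The next, -5073, scored 52.9, 59.1 and 88.1. Site +31085 scored 34.1, 34.0 and 25.0, and -22455 scored 34.1, 11.8 and 22.0. All other Cxcr4 sites had lower scores.

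At Ccl2 (chr11:81849073-81850955, plus strand) the tall sites were upstream. Site -12681 scored 228.6 in MPs, 190.7 at 36 h and 168.9 in OCs. Site -2746 scored 153.5, 116.8 and 101.3, and -28339 scored 126.2, 109.4 and 132.2. Both -12681 and -2746 had their highest score in MPs and their lowest in OCs. Neither was called changed, with adjusted p of 0.515 and 0.407 between MPs and OCs in the exact binomial test described below. Site -340, the nearest to the start, scored 100.6, 90.2 and 113.1. Both -2746 and -340 also lie in an intron of Gm17268, an annotated gene that overlaps this region.

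The ligand cluster runs from Ccl9 (chr11:83386421-83392138) over Ccl6 (chr11:83401384-83406589) and Ccl3 (chr11:83461346-83462857), all on the minus strand, to Ccl4 (chr11:83476086-83478185) on the plus strand. In it, Ccl6 -26149 was the tallest, with 245.6 in MPs (144 tags), 137.5 at 36 h (93 tags) and 163.0 in OCs (111 tags). It lies between Ccl6 and Ccl3 in an intron of E230016K23Rik, a long noncoding RNA gene, and counts for both chemokine genes. Ccl4 -200, at the promoter of Ccl4, scored 136.5, 82.8 and 96.9, and Ccl3 -57, at that of Ccl3, scored 104.1, 73.9 and 67.5. Both promoter sites had their highest score in MPs. At the start of Ccl9, +61 scored 80.2, 112.3 and 88.1, while +1085 in its intron scored 126.2, 73.9 and 105.7. Neither the promoter sites nor these Ccl9 sites were called changed by the test described below. Between MPs and 36 h, this exact binomial test gave adjusted p of 0.306, 0.752, 0.329 and 0.264, in the order named. Ccl6 -23 at its start scored 76.8, 94.6 and 88.1. Further tall sites were Ccl3 +8956 with 117.7, 128.6 and 99.9, Ccl9 +18056 with 100.6, 75.4 and 91.0, and Ccl3 -6520 with 114.3, 94.6 and 120.4.

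**Figure D3:**
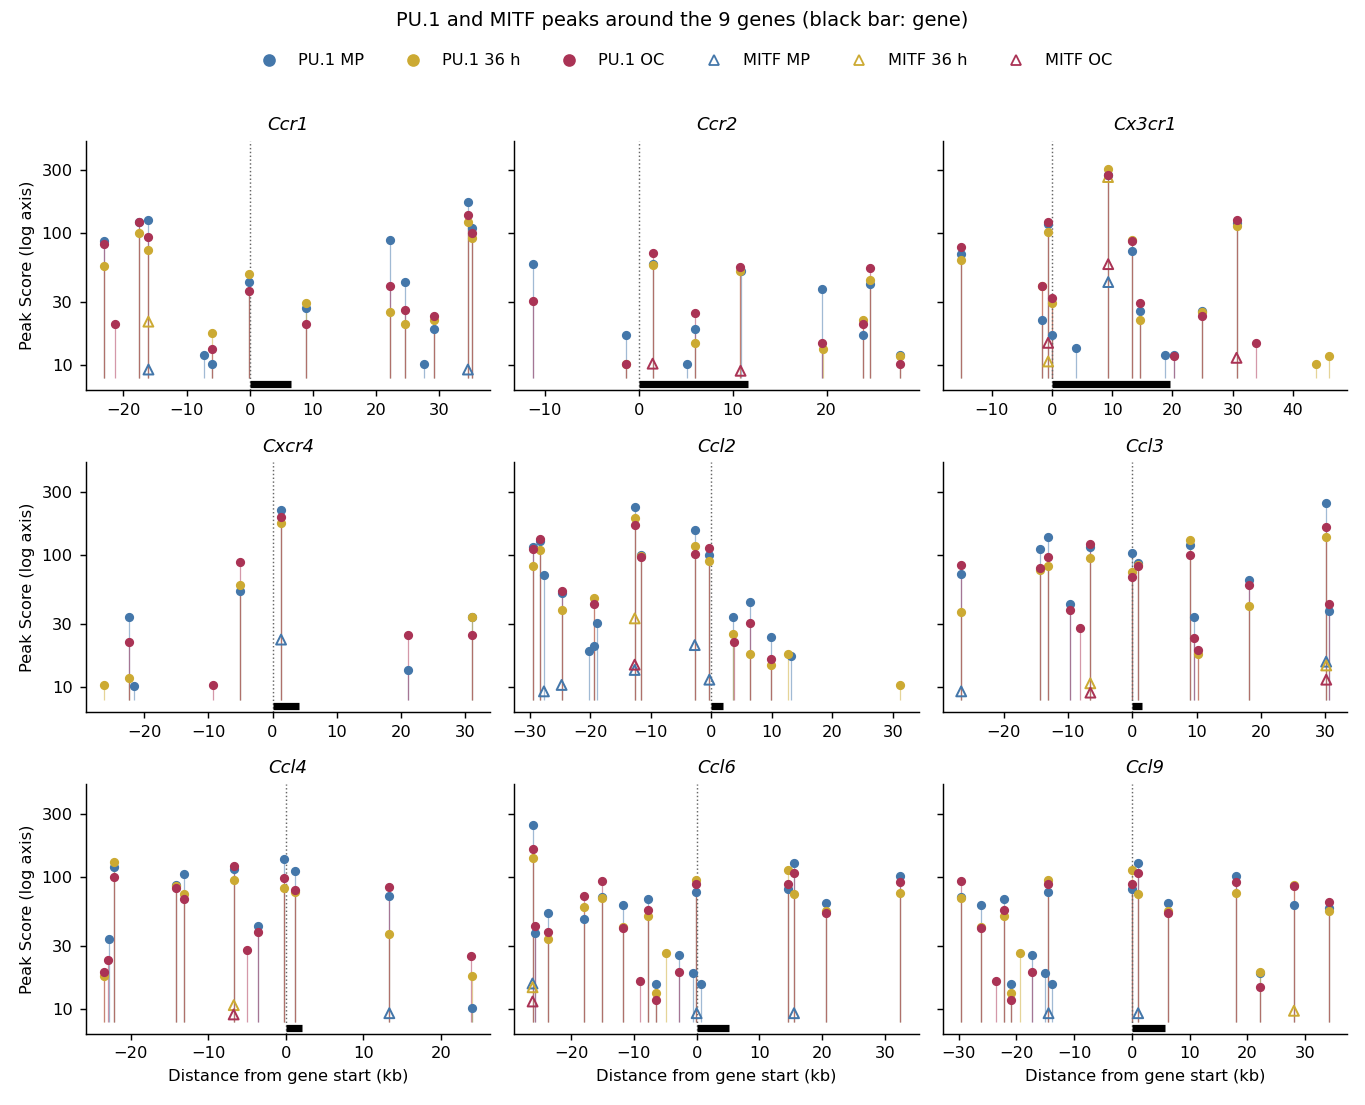
Each panel shows 1 gene, with distance from its start in kb along the gene's own direction on the x axis and Peak Score on a log y axis. Circles are PU.1 peaks and triangles MITF peaks, colored by time, and the black bar is the gene. The tallest PU.1 peak is in Cx3cr1, where MITF at 36 h reaches 264.8, and most other MITF peaks lie near the bottom of the scale.

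Most sites sat outside genes. By their centres, 63 of the 98 were intergenic, 26 intronic and 9 exonic, and 11 lay within 1000 bp of the start of 1 of the 9 genes. For 67 sites the nearest start of a protein-coding gene was that of a chemokine gene followed here, and for 31 it was another gene, so distance alone does not assign those to a member.

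PU.1 occupied largely the same sites at all 3 times. Of the 98 sites, 67 (68.4%) had a PU.1 peak in MPs, at 36 h and in OCs. Another 7 had one in MPs and OCs, 1 at 36 h and in OCs, 12 in MPs alone, 6 at 36 h alone and 5 in OCs alone. Of the PU.1 MP peaks at the 9 genes, 74 of 86 overlapped a PU.1 OC peak (86.0%, against 78.8% of the MP list). In the other direction the same 74 were 92.5% of the OC peaks, against 78.0% of that list. A PU.1 36 h peak was overlapped by 67 of the 86 MP peaks (77.9%, against 73.9% of the MP list). The same held for 68 of the 80 OC peaks (85.0%, against 75.3% of the OC list). The share of sites with a peak at all 3 times was not counted over the whole lists. Peaks at the 9 genes were taller than the usual peak, and the part that height plays in these shares was not tested.

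Sites seen at 1 time were mostly weak. Only 5 of these 23 sites reached 2 times the lowest score of their list. The tallest was Ccl2 -27672, with a score of 69.9 (41 tags) in MPs and no peak later. Ccl2 -18946 scored 30.7 in MPs alone, and Ccl6 -4862 scored 26.6 at 36 h alone. Ccl4 -5050, between Ccl3 and Ccl4, scored 27.9 in OCs alone, and Ccr1 -21398 scored 20.6 in OCs alone. So both of the taller sites limited to MPs were upstream of Ccl2. A site with no peak has a signal below the threshold of the list, which need not be 0.

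Of the 74 sites with a PU.1 peak in both MPs and OCs, 7 (9.46%) had none at 36 h, against 14.1% over the whole lists. Among those with scores of at least 30 at both ends, 3 of 49 (6.12%, 95% CI 1.28 to 16.9) lacked the 36 h peak, against 2.81% overall. These were Ccr2 -11311, Ccl4 -3549 with 42.6 in MPs and 38.2 in OCs, and Ccl6 -25715 with 37.5 and 42.6.

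Few shared PU.1 peaks at these genes were called changed in height. Tags at each pair of overlapping peaks were compared by an exact two-sided binomial test against the median ratio of all pairs of the 2 libraries, with Benjamini-Hochberg adjustment over all of them, and "changed" means an adjusted p under 0.05 together with a difference of at least 2-fold. The test compares 2 libraries and not the conditions. Between MPs and 36 h, 1 of 67 pairs at the 9 genes changed, against 1.05% of 56340 pairs, and 12 of the 67 had an unadjusted p under 0.05, against 10.9% of all pairs. Between 36 h and OCs it was 0 of 68, against 0.0707% of 58013, and 2 of the 68 had an unadjusted p under 0.05, against 6.45% of all pairs. Between MPs and OCs it was 0 of 74, against 0.156% of 60100, and 9 of the 74 had an unadjusted p under 0.05, against 7.84%. The shares called were close to the background.

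The pair that changed was Ccr1 +22245, in the intergenic region beyond the end of Ccr1. Its score was 88.7 in MPs (52 tags), 25.1 at 36 h (17 tags) and 39.6 in OCs (27 tags). The MP value was the high one of the 3. Between MPs and 36 h its log2 ratio was -1.70 (95% CI -2.58 to -0.88), with an adjusted p of 0.00355 in the exact binomial test. Between MPs and OCs it was -1.14 (95% CI -1.87 to -0.44), with an adjusted p of 0.116. The window of this site had none of the 5 motifs searched. Its sequence does hold TTCC, which is the core GGAA on the minus strand. The PU box GAGGAA was in 55.8% of all PU.1 OC windows, so many PU.1 peaks lack it.

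At Ccl6 -26149 the score was 245.6 in MPs against 137.5 at 36 h, with a log2 ratio of -0.71 (95% CI -1.11 to -0.33) and an adjusted p of 0.0245 in the exact binomial test, which is less than 2-fold and was not called. The other members with large ratios did not pass the adjusted limit, as these examples show. Ccl2 -19359 had 12 tags in MPs, 32 at 36 h and 29 in OCs, with a log2 ratio of 1.33 (95% CI 0.34 to 2.42) between MPs and 36 h and an adjusted p of 0.165 in the exact binomial test. Ccl4 +13335 had 42, 25 and 57 tags, and its log2 ratio between 36 h and OCs was 1.07 (95% CI 0.37 to 1.81) with an adjusted p of 0.291 in the same exact test. Over all pairs at the 9 genes, the median log2 ratio was -0.08 between MPs and 36 h, 0.04 between 36 h and OCs and -0.08 between MPs and OCs, on a scale where the median of all pairs is 0.

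**Figure D4:**
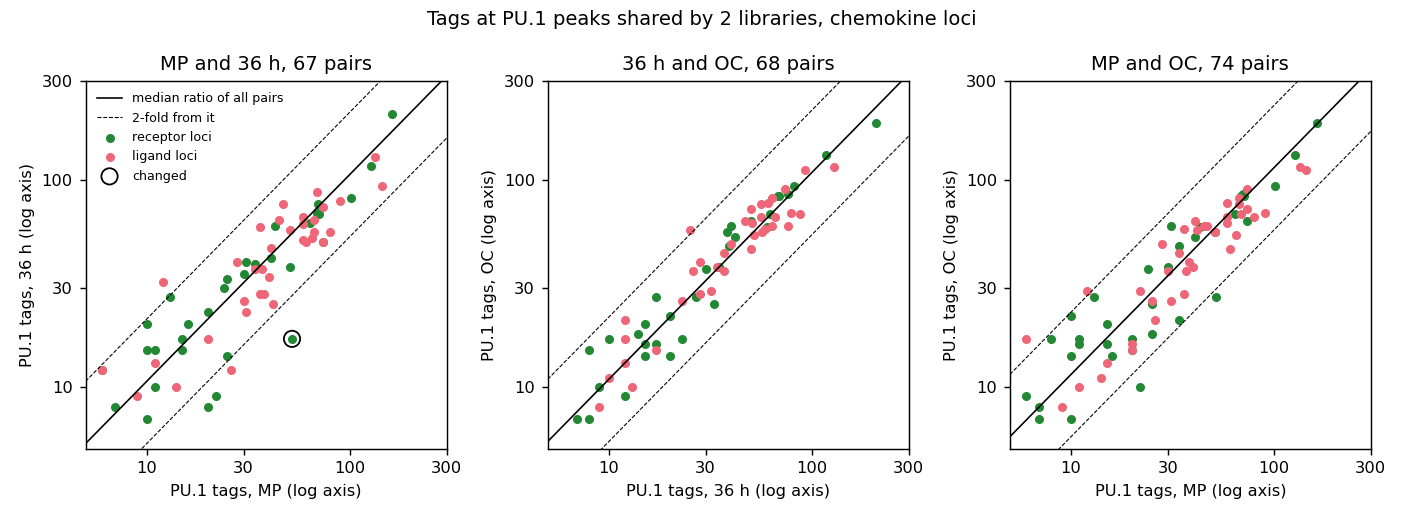
Each point is a PU.1 site shared by 2 libraries, with its tags in the earlier library on the x axis and in the later one on the y axis, both log axes. The solid line is the median ratio of all pairs in the genome, the dashed lines are 2-fold from it, green points are receptor loci and pink points ligand loci. The ring marks Ccr1 +22245, the 1 changed pair of 67 between MPs and 36 h, and most other points lie between the dashed lines.

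MITF peaks were few at these genes, and most of those in MPs had no MITF peak at the later times. There were 13 in MPs, 7 at 36 h and 8 in OCs, at 19 sites in all. Of the 13 in MPs, 4 overlapped a MITF peak at 36 h (30.8%, interval 9.09 to 61.4, against 46.4% of the MITF MP list). Another 3 of 13 is the count for OCs (23.1%, 5.04 to 53.8, against 52.5%). Of the 8 in OCs, 3 overlapped one in MPs (37.5%, 8.52 to 75.5, against 64.0%). Between 36 h and OCs, 5 of the 7 peaks at 36 h overlapped one in OCs (71.4%, 29.0 to 96.3, against 66.4%). In the other direction it was 5 of 8 (62.5%, 24.5 to 91.5, against 52.9%). Each of these exact binomial intervals covers the value of the list, so a difference from the list was not shown. The MITF peaks here had median scores of 10.4 in MPs, 14.6 at 36 h and 11.4 in OCs. Over the whole lists the medians were 12.5, 23.4 and 11.4. Whether peak height lowers these shares was not tested. In MPs 8 of the 9 genes had at least 1 MITF peak, at 36 h 7 and in OCs 6. This compares with 24.5%, 17.9% and 21.6% of protein-coding genes. The windows of Ccl3, Ccl4, Ccl6 and Ccl9 share peaks, so these gene counts are not independent. The 4 receptor genes had 4, 3 and 5 MITF peaks over the 3 times and the 5 ligand genes 9, 4 and 3. Ligand windows thus held most of the MITF peaks in MPs and receptor windows most of them in OCs, a shift of few peaks that was not tested. With only peaks of at least 2 times the lowest score, 3, 3 and 1 MITF peaks remained in MPs, at 36 h and in OCs.

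Every MITF peak at these genes overlapped a PU.1 peak of the same time: 13 of 13 in MPs, 7 of 7 at 36 h and 8 of 8 in OCs. This is near what all MITF peaks did, of which 97.9%, 93.8% and 93.3% overlapped PU.1. In the other direction, 13 of 86 PU.1 peaks at the 9 genes carried MITF in MPs (15.1%, against 6.95% of the list), 7 of 74 at 36 h (9.46% against 4.62%) and 8 of 80 in OCs (10.0% against 5.38%). MITF lay on the taller PU.1 peaks. No PU.1 peak under a score of 50 carried MITF at the 9 genes, in 42 peaks in MPs, 37 at 36 h and 39 in OCs, against 0.238%, 0.221% and 0.256% of such peaks in the lists. At scores from 50 to 100, MITF was on 4 of 22 in MPs (18.2%, 95% CI 5.19 to 40.3, against 8.66% of the list), 3 of 25 at 36 h (12.0%, 2.55 to 31.2, against 6.38%) and 2 of 27 in OCs (7.41%, 0.91 to 24.3, against 8.24%). At scores of at least 100, MITF was on 9 of 22 in MPs (40.9%, 95% CI 20.7 to 63.6, against 55.6% of the list), 4 of 12 at 36 h (33.3%, 9.92 to 65.1, against 44.7%) and 6 of 14 in OCs (42.9%, 17.7 to 71.1, against 45.6%). The share at the chemokine genes was thus above that of the list from 50 to 100 in MPs and at 36 h and below it from 100 up at each time, and every one of these 6 intervals covers the value of the list.

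The intron of Cx3cr1 stood out. MITF at +9356 scored 42.6 in MPs (41 tags), 264.8 at 36 h (272 tags) and 58.2 in OCs (51 tags), while PU.1 there stayed between 276.1 and 306.0. The 36 h value was the high one, in a list whose median score was 23.4, against 12.5 in MPs and 11.4 in OCs. By rank within its list, the MITF score of this site stood at percentile 98.5 in MPs, 99.5 at 36 h and 99.5 in OCs. In the exact binomial test, which for MITF was added after the data had been seen, the log2 ratio was 1.93 (95% CI 1.46 to 2.44) between MPs and 36 h, with an adjusted p of 5.56e-18. It was -1.33 (95% CI -1.80 to -0.90) between 36 h and OCs, with an adjusted p of 5.13e-09. Between MPs and OCs it was 0.56 (95% CI -0.07 to 1.19), with an adjusted p of 1. This was the 1 changed pair of 4 between MPs and 36 h (background 15.2%) and of 5 between 36 h and OCs (background 9.66%), and of 3 pairs between MPs and OCs 0 changed, against 0.0% of 2844, with 0 at an unadjusted p under 0.05, against 3.23%.

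The width of the peak differed with time at this site, with 150 bp in MPs, 293 bp at 36 h and 150 bp in OCs. Per 100 bp the peak held 27.3, 92.8 and 34.0 tags. Per base and relative to the median of all pairs, the log2 ratio was 1.23 between MPs and 36 h, and 7.73% of all MITF pairs were at least as far from the median. Between 36 h and OCs it was -0.64, and 36.1% of pairs were at least as far. The direction was thus the same per base, but the difference between 36 h and OCs was under the 2-fold limit, so that change was not called per base. Wide peaks over 250 bp made up 4.35% of the MITF 36 h list, and the part that the width plays in the score was not tested.

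Besides Cx3cr1 +9356, MITF was present at all 3 times at 2 ligand sites. At Ccl2 -12681 it scored 13.5, 33.1 and 14.8, with a peak of 191 bp at 36 h and 150 bp in MPs and OCs. By rank within its list, this site stood at percentile 56.3 in MPs, 68.4 at 36 h and 68.8 in OCs. Its log2 ratio between MPs and 36 h was 0.59 (95% CI -0.37 to 1.64), with an adjusted p of 0.435 in the exact binomial test. At Ccl6 -26149 it scored 15.6, 14.6 and 11.4. These 3 sites were also among the tallest PU.1 sites of the 9 genes, with PU.1 scores of at least 137.5 at every time.

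MITF at Ccr1 was seen in MPs and at 36 h. Site -16026, which is nearer to the start of the receptor-like gene Ccr1l1 (6310 bp) than to that of Ccr1, scored 9.3 in MPs and 21.4 at 36 h and had no peak in OCs, while PU.1 there scored 126.2, 73.9 and 92.5. Site +34563 had 9.3 in MPs only. At Cx3cr1 -617 the order was the reverse, with no MITF peak in MPs, 10.7 at 36 h and 14.8 in OCs. Ccl3 -6520 had no peak in MPs, 10.7 at 36 h and 9.1 in OCs. Most of these values lie close to the lowest score of each list, which held 8 to 10 tags, and a site just below it is not listed.

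There were 9 sites with MITF in MPs alone, and 5 of them were at 9.3, the lowest score of the list. The exceptions with at least 20 tags were Cxcr4 +1350, with 22.9 (22 tags) on a PU.1 site of 216.6, and Ccl2 -2746, with 20.8 (20 tags) on a PU.1 site of 153.5. Ccl2 had 3 more such sites, -340 at 11.4, -24759 at 10.4 and -27672 at 9.3. At -27672 the PU.1 peak was also limited to MPs, while at the other Ccl2 sites PU.1 stayed in all 3 lists. The remaining ones, Ccr1 +34563, Ccl9 +1085, Ccl6 -23 and Ccl4 +13335, were all at 9.3. Ccl2 thus went from 5 MITF peaks in MPs to 1 at 36 h and 1 in OCs.

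In OCs alone, MITF was found at Ccr2 +1498 with 10.3, at Ccr2 +10838 with 9.1 and at Cx3cr1 +30644 with 11.4, all receptor sites and all near the lowest score of 9.1. Site +30644 is nearer to the start of Xirp1, a muscle gene, than to that of Cx3cr1. At 36 h alone it was found at Ccl9 +28072 with 9.7, which is nearer to the start of Ccl5. By their centres, 10 of the 19 MITF sites were intergenic, 7 intronic and 2 exonic, the exonic pair being those in Ccr2.

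**Figure D5:**
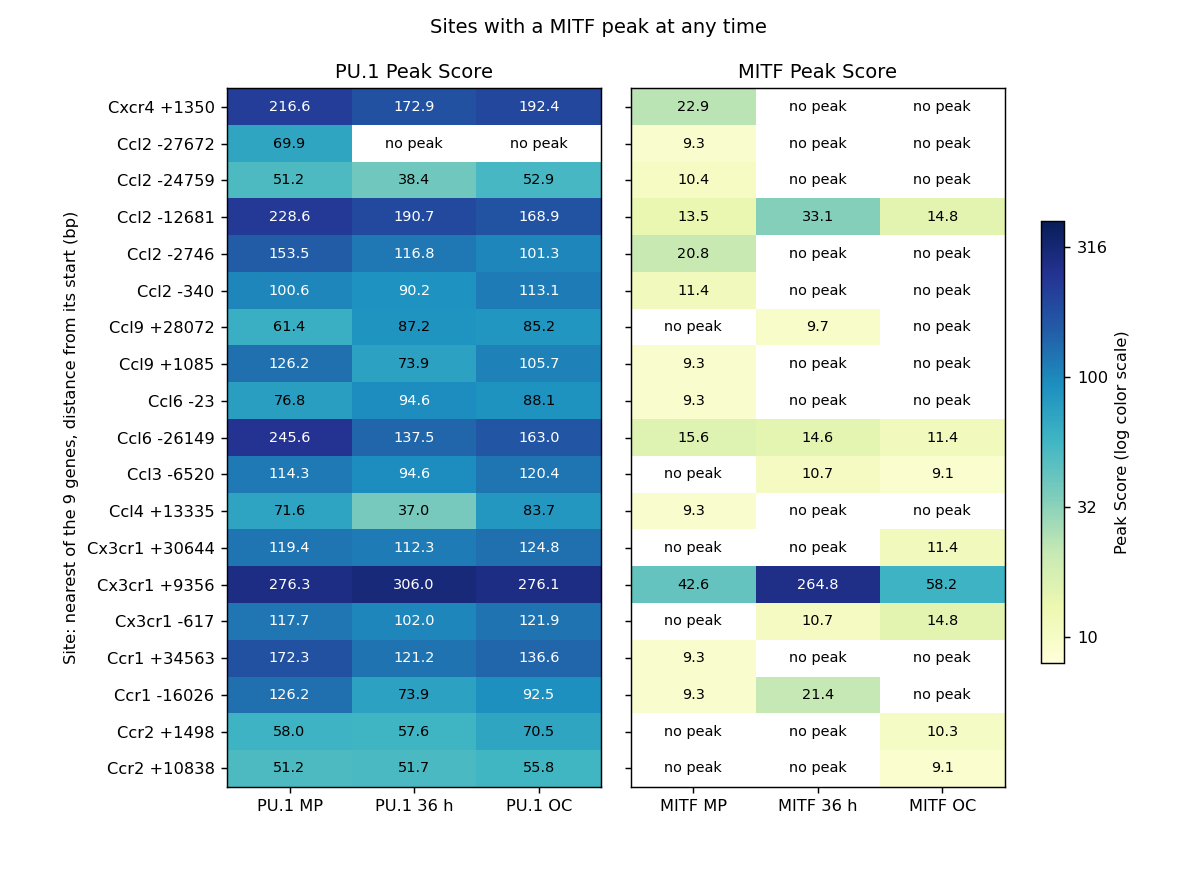
Rows are the 19 sites that had a MITF peak at any time and columns the 6 libraries, with the Peak Score printed in each cell and shaded on a log color scale. PU.1 fills 55 of its 57 cells, the gaps being Ccl2 -27672 at 36 h and in OCs, whereas MITF fills 28 of 57 and exceeds 60 only at Cx3cr1 +9356 at 36 h.

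The other chemokine genes give the setting. Of 45 further receptors and ligands, 43 were in the annotation, and 40 had a PU.1 peak in MPs, 40 at 36 h and 41 in OCs, with a median of 7 peaks per gene at each time. All 16 receptors had one in each library, and of the 27 ligands 24, 24 and 25 did. MITF was at 15, 14 and 17 of the 43. The highest number of PU.1 peaks in OCs was 14, at Ccrl2, and Ccl19 and Ccl20 had 0 at every time. Ccr3 shares window with Ccr1, Ccr8 with Cx3cr1, Ccl5 with Ccl6 and Ccl9, and Ccl7 and Ccl11 with Ccl2. Genes that share a window hold some of the same peaks as the genes followed here, and the 37 that share with none had a median of 6. The 9 genes, with medians of 11 to 12, thus had more PU.1 peaks than the typical member of their family, by a choice of genes that was not made at random.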

How the data were processed

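PU.1 and MITF were measured by ChIP-Seq in MPs, at 36 h and in OCs, with IgG in MPs, 1 library each. Per the submitters' processing notes, CASAVA 1.8, Bowtie2 and HOMER were used on mm9, and the authors deposited 1 HOMER peak list per library. The deposited value used is the Peak Score, tags scaled to a common library size. Dividing by the score of 1 tag gave whole tags to within 0.0511. Sites were placed on the GENCODE annotation of mm9. Of 239001 peaks, 338 were on sequences not in the reference and were left out of annotation. Shares have 95% exact Clopper-Pearson intervals. Tags were compared by exact binomial tests, checked on simulated tags, where 187, 183 and 189 of 200 changes of 4-fold were recovered between MPs and 36 h, 36 h and OCs, and MPs and OCs. These changes were placed only at peaks well above the median tags of the list. Recovery at weaker peaks, or of changes under 4-fold, was not simulated. The simulated tags held counting error only, with no variation between libraries and no difference in peak width. They therefore do not show how the test performs on these unreplicated libraries. Members, marker genes and lists of other genes were chosen with earlier results of these data known. Named are the 3 tallest PU.1 sites of each gene and the one nearest to its start, every MITF site, changed pairs, and sites seen at 1 time with at least 2 times the lowest score. Ccl2 -19359, Ccl4 -3549, Ccl6 -25715 and Ccr1l1 were named after their values had been seen. Alternatives were another window, a stricter score, removal of IgG peaks, other overlap rules and another reference ratio. Python 3.11.15, scipy 1.17.1 and samtools 1.23.1 were used.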

Additional observations from a re-analysis of the deposited data

How the results depend on the processing

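No paired analysis was possible because each condition has 1 library. With a window of 10 kb in place of 30 kb, the 9 genes had 44, 36 and 42 PU.1 peaks in MPs, at 36 h and in OCs and 6, 3 and 5 MITF peaks, and every one of these MITF peaks overlapped PU.1. With only peaks of at least 2 times the lowest score, 3, 3 and 1 MITF peaks were left, all of them on PU.1. With the ratio of library sizes as the reference, 2 MITF pairs changed between MPs and 36 h and 2 between 36 h and OCs, in place of 1 and 1. Removing peaks that overlapped IgG left 86, 74 and 80 PU.1 peaks and 13, 7 and 8 MITF peaks. This outcome was fixed in advance, because no IgG peak lay at the 9 genes. The alternatives of PU.1 pairs gave the same numbers of changed pairs. All other alternatives, such as a window of 50 kb, gave counts within 1.5 times those reported. The causes of these moves were not tested. A binding site with fewer tags than the lowest peak of its list, 6 to 10 tags, cannot be seen at this depth.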
